A study of Homo sapiens with 16 samples.

Results

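The genes described here are the writers and erasers of cytosine methylation in DNA. They were taken by symbol from the gene table and are the maintenance pair UHRF1 and DNMT1, the de novo methyltransferases DNMT3A and DNMT3B, the dioxygenases TET1, TET2 and TET3, and the glycosylase TDG. All 8 symbols matched 1 row each among 60669 rows, and all 8 passed the filter on low counts that left 16555 genes for testing. The rows were matched by symbol alone, without use of a measured value. The 8 genes and the gene lists used below were, however, chosen with earlier results of these data known.

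All samples were MOLM-13 cells, an established human line from an acute myeloid leukaemia that carries an MLL fusion. Cells were kept for 4 days with 0.005% DMSO, with 1 µM of an EZH2 inhibitor (EZH2i), with 1 µM of a PRMT5 inhibitor (PRMT5i), or with 1 µM of each (the combination). Each of the 4 groups had 4 libraries, and the labels name neither compound. Whether the libraries of a group came from separate cultures is not stated, so every p-value reflects only the spread among these libraries, which may be technical. EZH2 places the repressive methyl mark on lysine 27 of histone H3, and PRMT5 methylates arginines of histones and of splicing factors. The measurements were made on bulk RNA, so fewer cells in a given phase of the cell cycle and less RNA per cell cannot be told apart. DNA methylation itself was not analysed here.

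Methylation of CpG sites is copied at each round of replication, when UHRF1 recognises the half-methylated daughter DNA and brings DNMT1 to the replication fork. DNMT3A and DNMT3B set new marks on unmethylated DNA, while the TET enzymes oxidise the methyl group and TDG cuts out the most oxidised bases so that repair can restore an unmodified cytosine. In acute myeloid leukaemia, DNMT3A and TET2 are among the genes most often mutated, and TET1 is known as a gene that MLL fusions activate.

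Because UHRF1 and DNMT1 serve replication, the promoter windows of the 8 genes were searched for the E2F-type letters TTTCCCGC, TTTCGCGC, TTTGCCGC and TTTGGCGC on both strands. The windows are from RefSeq on GRCh38.p14, run from 250 bases before to 50 bases after an annotated start site, and were present for all 8 genes. Such letters stood in a window of 2 of the 8 genes, UHRF1 and DNMT1, against 3.99% of the 27305 genes with a window and 3.31% of the 35116 windows of 300 bases. Of the 15 S phase genes with a window, 12 held them. The sequences below are shown because these genes follow or leave the S phase genes in the results, with the matched letters in capitals and each sequence written 5′ to 3′ along the gene.
UHRF1 window 1, chr19:4909251-4909550, plus strand: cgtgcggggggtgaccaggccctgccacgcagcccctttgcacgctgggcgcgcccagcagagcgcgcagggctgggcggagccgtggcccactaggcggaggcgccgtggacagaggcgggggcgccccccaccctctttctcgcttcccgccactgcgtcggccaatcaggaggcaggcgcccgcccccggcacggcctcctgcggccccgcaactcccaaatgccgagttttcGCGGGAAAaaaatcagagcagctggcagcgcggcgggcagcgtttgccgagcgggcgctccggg
UHRF1 window 2, chr19:4909894-4910193, plus strand: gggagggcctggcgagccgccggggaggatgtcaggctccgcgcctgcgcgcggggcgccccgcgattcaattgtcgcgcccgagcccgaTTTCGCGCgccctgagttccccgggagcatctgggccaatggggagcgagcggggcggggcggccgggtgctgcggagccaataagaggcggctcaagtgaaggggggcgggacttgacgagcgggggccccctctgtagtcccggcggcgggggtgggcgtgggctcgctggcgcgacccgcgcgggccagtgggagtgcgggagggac
DNMT1, chr19:10194904-10195203, minus strand: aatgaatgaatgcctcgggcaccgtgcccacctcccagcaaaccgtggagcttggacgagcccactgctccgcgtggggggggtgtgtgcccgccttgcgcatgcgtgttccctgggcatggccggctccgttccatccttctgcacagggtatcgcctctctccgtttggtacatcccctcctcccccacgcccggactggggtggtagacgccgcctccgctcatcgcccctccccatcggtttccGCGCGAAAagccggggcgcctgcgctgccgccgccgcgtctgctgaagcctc
DNMT3B, chr20:32779602-32779901, plus strand: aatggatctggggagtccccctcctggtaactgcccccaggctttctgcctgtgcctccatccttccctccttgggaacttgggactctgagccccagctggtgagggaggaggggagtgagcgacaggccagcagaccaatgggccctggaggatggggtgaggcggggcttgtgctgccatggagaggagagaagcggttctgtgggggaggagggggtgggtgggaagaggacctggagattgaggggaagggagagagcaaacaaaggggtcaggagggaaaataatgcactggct
TET1 window 1, chr10:68560087-68560386, plus strand: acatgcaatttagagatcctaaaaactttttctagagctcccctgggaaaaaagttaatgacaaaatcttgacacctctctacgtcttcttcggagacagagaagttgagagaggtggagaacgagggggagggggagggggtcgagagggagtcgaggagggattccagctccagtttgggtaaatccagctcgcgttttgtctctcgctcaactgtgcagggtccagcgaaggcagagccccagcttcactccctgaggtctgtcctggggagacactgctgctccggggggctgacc
In UHRF1 window 1 the match began 14 bases before the start site, in window 2 it began 160 bases before it, and in DNMT1 it began 2 bases before it. The UHRF1 windows held 36 and 40 CpG sites and the DNMT1 window 30, whereas TET1 window 1 held 10 and the DNMT3B window 3. The start site of the only DNMT3B window lies 17467 bases inside the gene as GENCODE release 29 draws it. That of the only DNMT1 window lies 36333 bases inside, and those of UHRF1 windows 1 and 2 lie 6421 and 7064 bases inside. The outer promoters of these 3 genes, with or without a match, were therefore not searched. A match is a string of letters and not a measured binding site, and a window without one says nothing about the factor.

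The 16 libraries held 31.1 to 52.9 M expected counts. At that depth the 8 genes had between 190 expected counts (TET1) and 12919 (DNMT1) in a library. All 10 myeloid markers tested reached 1 CPM (counts scaled to a common library size), with summed levels of 2158 to 2559 CPM in DMSO, 2092 to 2342 CPM with EZH2i, 3001 to 3246 CPM with PRMT5i and 2633 to 2787 CPM with the combination. The part of this rise in the results was not tested. T cell markers summed to 1.87 to 7.69 CPM with CD2 at 0. Among them only CD3D reached 1 CPM, with means of 4.19 CPM in DMSO, 7.13 with EZH2i, 1.94 with PRMT5i and 3.91 with the combination. B cell markers summed to at most 1.33 CPM, erythroid markers to at most 0.192 CPM, and epithelial and fibroblast markers to at most 1.04 CPM with CDH1 at 0. DMSO replicate 1 stood apart. Its TMM scaling factor was 0.861, the lowest of the 16, and 1.70% of its counts lay on the mitochondrial genome, against 0.213% to 0.792% in the other libraries. Libraries also differed in how log2 CPM changed with the GC content of genes, by −0.22 per 10% GC in DMSO replicate 1 and by 0.26 and 0.29 in DMSO replicate 2 and EZH2i replicate 1. Differences of the 8 genes from DMSO are therefore also given without DMSO replicate 1.

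Per kilobase of exon, UHRF1 was the most abundant of the 8 genes in 15 of the 16 libraries and TET1 the least abundant in all 16. In DMSO, UHRF1 had a level of 26.4 ± 10.4 CPM per kb (SD, n = 4), DNMT1 21.6 ± 4.55, TDG 14 ± 2.48, DNMT3B 4.59 ± 0.219, TET3 3.73 ± 0.727, TET2 2.14 ± 0.0747, DNMT3A 1.92 ± 0.628 and TET1 0.665 ± 0.0202. The ranges of these neighbours overlapped for UHRF1 and DNMT1, for DNMT1 and TDG, and for TET2 and DNMT3A. The order of each of these pairs also changed between DMSO libraries, so it is not fixed by them. The ranges of DNMT3B and TET3 overlapped too, but within each DMSO library DNMT3B stood above TET3. Ranges of the other neighbours did not overlap. A change of order went with PRMT5 inhibition. DNMT3B stood above TET3 in all 8 libraries without PRMT5i, and below it in all 8 libraries with it, where DNMT3B had 2.34 ± 0.0615 CPM per kb with PRMT5i alone and 3.27 ± 0.189 with the combination.

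**Figure D1:**
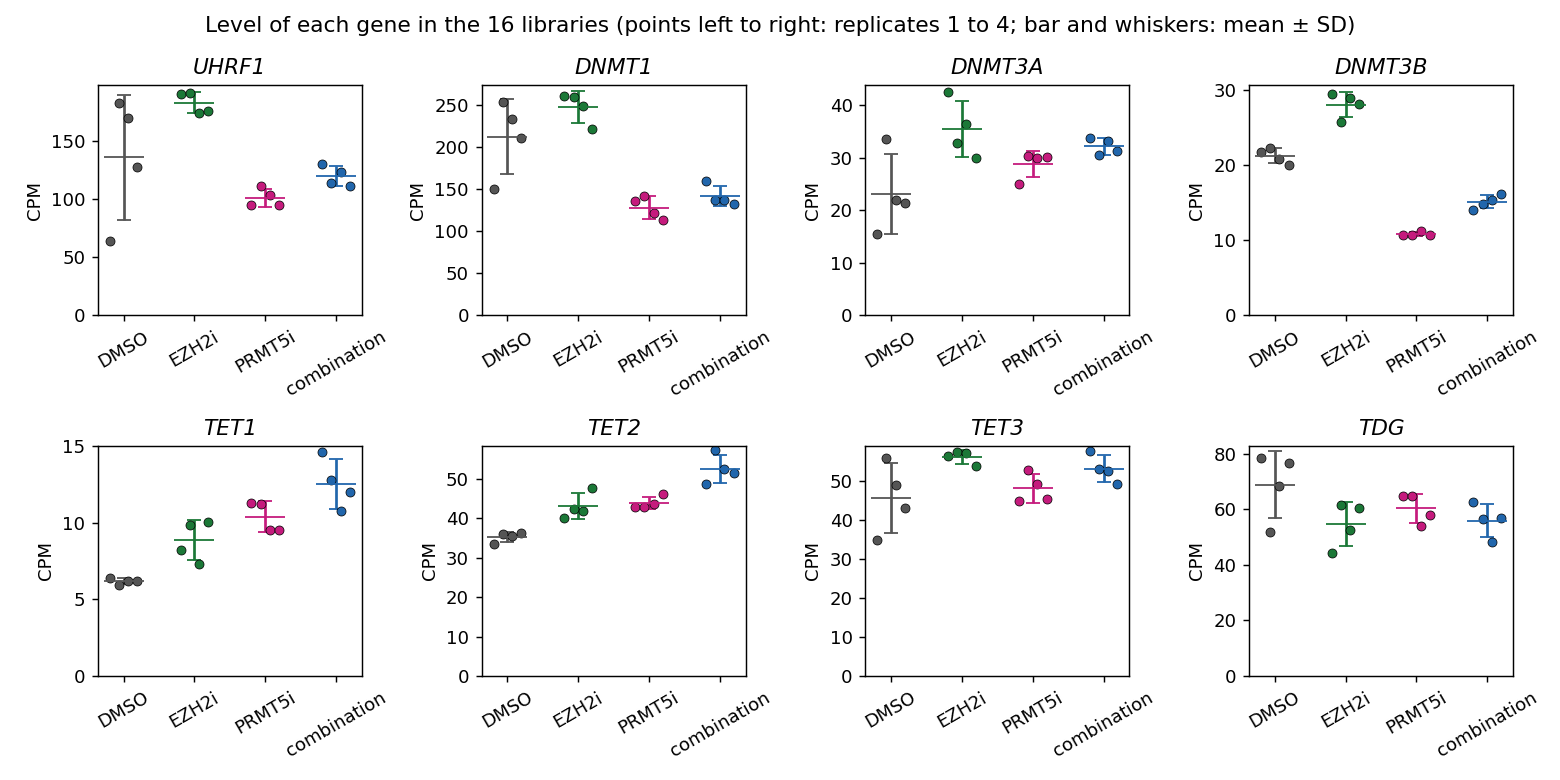
Level of each of the 8 genes in CPM (vertical axis, linear from 0) in the 4 libraries of each treatment, with the points of a treatment from left to right in the order of replicates 1 to 4 and with the mean ± SD. DNMT3B separates the 4 treatments with no overlap, from 10.7 to 11.2 CPM with PRMT5i up to 25.7 to 29.5 CPM with EZH2i, whereas UHRF1 spans 63.7 to 183 CPM within DMSO alone.

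The 8 genes did not move as 1 block. EZH2i raised DNMT3A, DNMT3B, TET1 and TET2. PRMT5i lowered DNMT1 and DNMT3B and raised TET1 and TET2. The combination lowered DNMT1 and DNMT3B and raised DNMT3A, TET1 and TET2, while TET3 and TDG passed the test in no comparison. These calls come from edgeR's quasi-likelihood test at a Benjamini-Hochberg adjusted p under 0.05 over all 16555 genes, and the 3 comparisons with DMSO share the same control libraries. With EZH2i, 4 of the 8 genes were called, all higher, where 7.6% of all tested genes were called (4.11% higher and 3.49% lower). With PRMT5i, 4 of 8 were called, 2 in each direction, where 35.3% of all genes were called (17.1% higher and 18.3% lower), so this count lies near the background. With the combination against DMSO, 5 of 8 were called, 3 higher and 2 lower, where 36.2% of all genes were called (17.6% higher and 18.5% lower). Adding PRMT5i to EZH2i gave 5 calls, 2 higher and 3 lower, against 28.0% of all genes (13.4% higher and 14.6% lower), and adding EZH2i to PRMT5i gave 1 call, higher, against 4.16% (2.91% higher and 1.24% lower). The median log2 fold change of the 8 genes was 0.35 with EZH2i, −0.06 with PRMT5i and 0.02 with the combination against DMSO. The median over all tested genes was −0.0055, −0.0032 and 0.0022 in the same order.

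**Figure D2:**
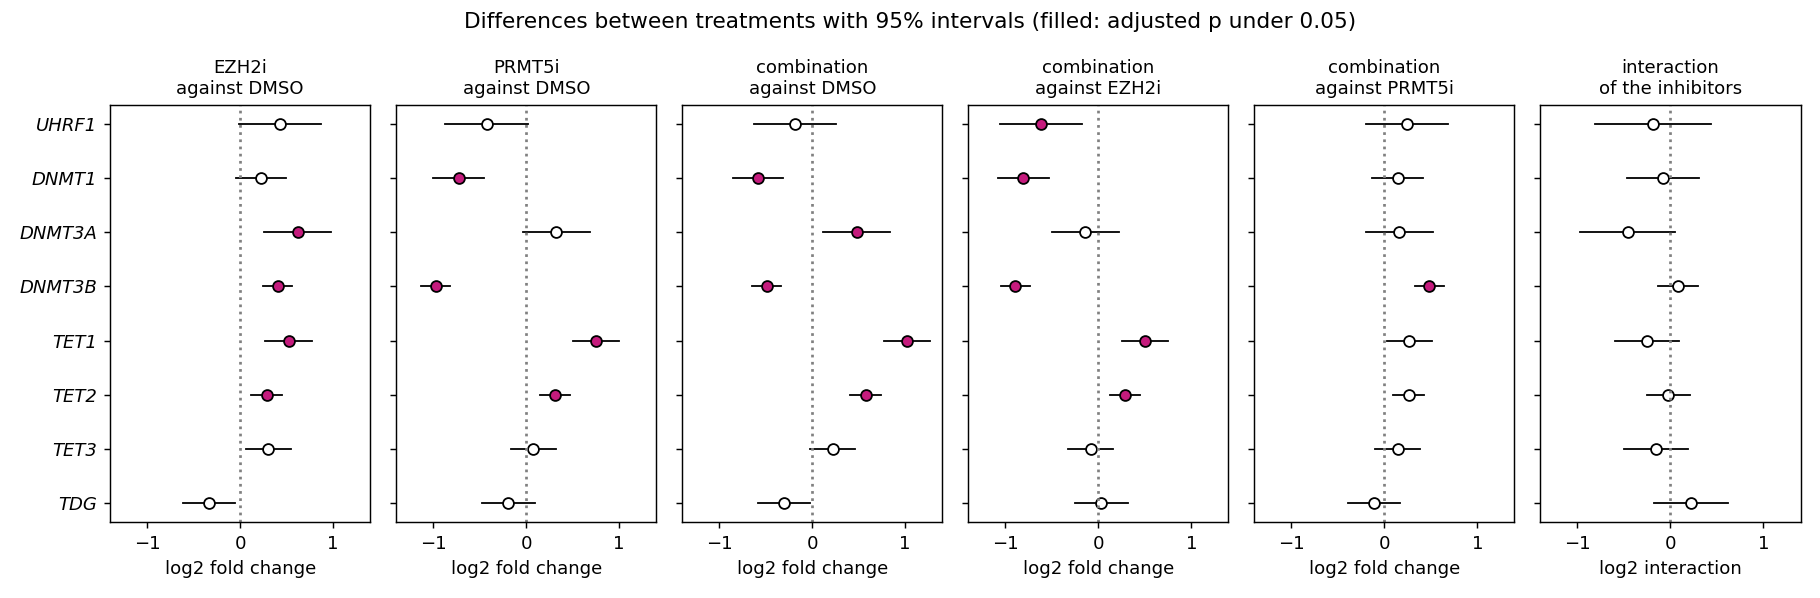
Log2 fold change of each gene (horizontal axis) with its 95% interval in the 5 comparisons, and in the last panel the interaction of the inhibitors, with filled points where the adjusted p was under 0.05. DNMT3B was called in all 5 comparisons, TET1 and TET2 lay above 0 in all 5, and no gene was called for the interaction.

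UHRF1 (chr19:4903080-4962154, plus strand), the recogniser of half-methylated DNA, was lower in the combination than with EZH2i alone, but differed from DMSO in no main test. In the order of replicates 1 to 4 it measured 63.7, 183, 169 and 127 CPM in DMSO. With EZH2i it measured 190, 191, 174 and 176 CPM, with PRMT5i 94.6, 111, 103 and 94.8 CPM, and with the combination 130, 113, 123 and 111 CPM. DMSO replicate 1 lay below every other library, and without it the DMSO values lay above all PRMT5i values and all but 1 combination value. The log2 fold change with PRMT5i was −0.43 (95% interval −0.87 to 0.01, adjusted p = 0.124, edgeR). Without DMSO replicate 1 it was −0.67 (adjusted p = 8.76e-05, edgeR) and the combination's was −0.44 (adjusted p = 0.00364), against −0.19 (95% interval −0.63 to 0.26) with all libraries. With EZH2i the log2 fold change was 0.43 (95% interval −0.01 to 0.87, adjusted p = 0.197). That value was 0.20 (adjusted p = 0.29) without DMSO replicate 1 and 0.60 (adjusted p = 0.0379) without DMSO replicate 2. Without replicate 2 the PRMT5i and combination values were −0.25 (adjusted p = 0.338) and −0.01 (adjusted p = 0.972), so the size of all 3 differences from DMSO depends on these libraries. The combination lay below EZH2i by −0.61 ± 0.21 (SE, adjusted p = 0.0373, edgeR), with no overlap between the groups. That call was lost on leaving out any 1 of the 4 EZH2i or the 4 combination libraries, with a log2 fold change of −0.66 to −0.58, and under scaling to total counts (−0.58, adjusted p = 0.0796). Against PRMT5i alone the combination differed by 0.24 (95% interval −0.20 to 0.68). RSEM split some UHRF1 reads with other loci, since its value was not whole in 15 of 16 libraries.

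DNMT1 (chr19:10133345-10231286, minus strand), the maintenance methyltransferase, fell wherever PRMT5 was inhibited. It measured 150, 253, 233 and 210 CPM in DMSO and 261, 259, 248 and 221 CPM with EZH2i. With PRMT5i it measured 136, 142, 121 and 113 CPM, and with the combination 159, 136, 137 and 132 CPM. The PRMT5i libraries lay below every DMSO library, and combination replicate 1 overlapped DMSO replicate 1. The log2 fold change was −0.73 ± 0.13 with PRMT5i (SE, adjusted p = 0.000322, edgeR) and −0.58 ± 0.13 with the combination (adjusted p = 0.00214). Without DMSO replicate 1 these values were −0.87 and −0.73, and both calls were kept in all 16 fits that left out 1 library. EZH2i alone gave 0.22 (95% interval −0.05 to 0.50, adjusted p = 0.271), and 0.10 (adjusted p = 0.611) without DMSO replicate 1. The combination lay below EZH2i by −0.81 ± 0.13 (adjusted p = 0.000186) and differed from PRMT5i by 0.14 (95% interval −0.13 to 0.42). DNMT1 shares 0.847% of its exon bases with S1PR2 on the same strand and is uncertain to that extent.

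The 10 partners of maintenance methylation behaved mostly like DNMT1. None passed the edgeR test with EZH2i, where 7.6% of all tested genes passed. Of the 10, 4 had an unadjusted p under 0.05, as had 4466 of all 16555 tested genes. DESeq2 called 1 of the 10 and limma-voom called 5, and their numbers over all genes are given in the section on processing. With PRMT5i 1 rose and 6 fell, with a median log2 fold change of −0.64, and with the combination 2 rose and 6 fell (median −0.38). Adding EZH2i to PRMT5i raised 2 and lowered none. Of all tested genes, 17.1% rose and 18.3% fell with PRMT5i, and 17.6% rose and 18.5% fell with the combination. On adding EZH2i to PRMT5i, 2.91% rose and 1.24% fell. LIG1, the ligase of the lagging strand, fell from 70.8 CPM in DMSO to 34.5 CPM with PRMT5i (log2 fold change −1.04 ± 0.12, adjusted p = 2.98e-06, edgeR). HELLS, the remodeller needed for methylation of repeats, fell from 55.9 to 23.6 CPM (−1.24 ± 0.15, adjusted p = 9.5e-06). HELLS and LIG1 were the 2 that rose again in the combination over PRMT5i, by 0.60 ± 0.15 and 0.52 ± 0.12 on the log2 scale. CDCA7L fell by 0.65 on the log2 scale with PRMT5i, but 20.4% of its exon bases are shared with DNAH11 on the other strand, so its value is uncertain. HELLS and LIG1 share 4.32% and 2.72% of their exon bases with a neighbouring gene and are uncertain to that extent. PCNA, the sliding clamp, and KIAA0101, a PCNA-binding factor, fell with the combination by 0.69 and 1.00 on the log2 scale, and the value of KIAA0101 is uncertain because 28.8% of its exon bases are shared.

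DNMT3B (chr20:32762385-32809356, plus strand), a de novo methyltransferase, varied little between replicates and changed in all 5 comparisons. It measured 21.8, 22.3, 20.8 and 20.1 CPM in DMSO and 29.5, 25.7, 29 and 28.1 CPM with EZH2i. In PRMT5i libraries it stood at 10.7, 10.7, 11.2 and 10.7 CPM, and with the combination 14.1, 14.9, 15.4 and 16.2 CPM. No pair of groups overlapped, in the order PRMT5i, combination, DMSO and EZH2i from low to high. PRMT5i lowered it by 0.98 on the log2 scale (SE 0.07) to 0.509 times the DMSO level, with an adjusted p of 5.27e-08 in edgeR. EZH2i raised it by 0.40 ± 0.07 (adjusted p = 0.004), and also raised it on top of PRMT5i, by 0.48 ± 0.07 (adjusted p = 0.00157). The combination remained below DMSO, by −0.49 ± 0.07 (adjusted p = 7e-05), and below EZH2i alone, by −0.89 ± 0.07 (adjusted p = 2.64e-07). All 5 calls were kept in each of the 16 fits that left out 1 library. The EZH2i call was lost in the fit of only the EZH2i and DMSO libraries, which is given below. Without DMSO replicate 1 the differences from DMSO were 0.42 with EZH2i, −0.97 with PRMT5i and −0.49 with the combination.

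DNMT3A (chr2:25227855-25342590, minus strand), the other de novo enzyme, did not share the fall. It measured 15.5, 33.5, 21.9 and 21.5 CPM in DMSO and 42.5, 32.8, 36.4 and 30.02 CPM with EZH2i. PRMT5i libraries held 25.1, 30.3, 29.9 and 30.04 CPM, and with the combination 33.8, 30.4, 33.1 and 31.3 CPM. DMSO replicate 2 lay within the EZH2i and combination ranges and above the PRMT5i range, while the other DMSO libraries lay below every treated library. The log2 fold change was 0.62 ± 0.17 with EZH2i (SE, adjusted p = 0.0373, edgeR), 0.48 ± 0.17 with the combination (adjusted p = 0.0368) and 0.32 with PRMT5i (95% interval −0.04 to 0.68, adjusted p = 0.157). Both calls were close to the threshold. The EZH2i call was lost in 11 of the 16 fits that left out 1 library, with log2 fold changes of 0.48 to 0.85 over the 16. It was kept only without DMSO replicate 2, EZH2i replicate 4, PRMT5i replicate 1, PRMT5i replicate 2 or combination replicate 2. The combination's call was lost without DMSO replicate 1, 3 or 4, or without any 1 combination library. Without DMSO replicate 1 no difference from DMSO passed, at 0.48 with EZH2i (adjusted p = 0.0579), 0.16 with PRMT5i (adjusted p = 0.402) and 0.32 with the combination (adjusted p = 0.0876). Without DMSO replicate 2 all 3 passed, at 0.85 with EZH2i, 0.55 with PRMT5i and 0.71 with the combination. The combination differed from EZH2i by −0.14 (95% interval −0.50 to 0.22) and from PRMT5i by 0.16 (95% interval −0.20 to 0.52).

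The balance of the de novo enzymes shifted with PRMT5 inhibition. The log2 ratio of DNMT3B to DNMT3A in CPM was −0.06 ± 0.44 (SD, n = 4) in DMSO (−0.25 ± 0.29 over the other 3 libraries without replicate 1) and −0.32 ± 0.18 with EZH2i. It was −1.41 ± 0.13 with PRMT5i and −1.09 ± 0.13 with the combination. The highest of the 8 values with PRMT5i present was −0.95, below the lowest of the 8 values without it, −0.59. Of the 9 genes that guide or assist de novo methylation, 8 could be tested. None passed the edgeR test with EZH2i, where 7.6% of all tested genes passed. An unadjusted p under 0.05 was found for 3 of the 8, and for 4466 of all 16555 tested genes. DESeq2 called 1 and limma-voom called 4. With PRMT5i and with the combination 1 rose and 1 fell. These counts lie below the background, since 35.3% and 36.2% of all tested genes were called. WHSC1, which writes dimethylated lysine 36 of histone H3, fell from 99.5 CPM in DMSO to 50.7 CPM with PRMT5i (log2 fold change −0.97 ± 0.13, adjusted p = 1.79e-05, edgeR). SETD2, which writes the trimethylated form of the same residue, rose by 0.32 ± 0.10 (adjusted p = 0.0214) with PRMT5i and by 0.41 ± 0.10 (adjusted p = 0.00485) with the combination. WHSC1 was higher in the combination than with PRMT5i, by 0.49 ± 0.13 (adjusted p = 0.0412), as DNMT3B was.

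TET1 (chr10:68560656-68694482, plus strand), the least abundant eraser, rose with each inhibitor and was highest in the combination. It measured 6.37, 5.92, 6.21 and 6.19 CPM in DMSO and 8.21, 9.82, 7.31 and 10.1 CPM with EZH2i. With PRMT5i it measured 11.3, 11.2, 9.54 and 9.54 CPM, and with the combination 14.6, 12.8, 10.8 and 12 CPM. Every treated library lay above every DMSO library, and the combination overlapped PRMT5i. The log2 fold change was 0.52 ± 0.12 with EZH2i (SE, adjusted p = 0.015, edgeR), 0.75 ± 0.12 with PRMT5i (adjusted p = 9.27e-05) and 1.02 ± 0.12 with the combination (adjusted p = 5.81e-06), which is 2.03-fold. Without DMSO replicate 1 these values were 0.54, 0.75 and 1.02, and all 3 passed. The EZH2i call was lost without EZH2i replicate 2 (0.46, adjusted p = 0.0506), and in the fit of only the EZH2i and DMSO libraries given below. The combination lay above EZH2i by 0.50 ± 0.12 (adjusted p = 0.00364) and differed from PRMT5i by 0.27 (95% interval 0.03 to 0.51, adjusted p = 0.248).

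TET2 (chr4:105145875-105279816, plus strand) rose in the same 4 comparisons by smaller amounts. It measured 33.6, 35.9, 35.4 and 36.4 CPM in DMSO and 40.2, 42.3, 41.8 and 47.8 CPM with EZH2i. Under PRMT5i the values were 43.0, 42.9, 43.6 and 46.1 CPM, and with the combination 48.8, 57.2, 52.6 and 51.6 CPM. Every combination library lay above every other library, and every DMSO library lay below every treated one. The log2 fold change was 0.31 ± 0.08 with PRMT5i (SE, adjusted p = 0.00444, edgeR), 0.57 ± 0.08 with the combination (adjusted p = 2.66e-05) and 0.28 ± 0.08 with EZH2i (adjusted p = 0.0344). The combination lay above EZH2i by 0.29 ± 0.08 (adjusted p = 0.00971) and differed from PRMT5i by 0.26 (95% interval 0.10 to 0.42, adjusted p = 0.0701). The EZH2i call was kept in only 5 of the 16 fits that left out 1 library, those without DMSO replicate 2, EZH2i replicate 1, PRMT5i replicate 4, combination replicate 1 or combination replicate 2. Over the 16 fits its log2 fold change was 0.23 to 0.31. The EZH2i, PRMT5i and combination values were 0.27, 0.28 and 0.53 without DMSO replicate 1. Without a filter on low counts it was 0.27 (adjusted p = 0.151).

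TET3 (chr2:73986404-74108176, plus strand) passed in none of the comparisons. It measured 34.9, 56, 49 and 43 CPM in DMSO and 56.4, 57.6, 57.3 and 53.8 CPM with EZH2i. With PRMT5i the libraries had 45, 53, 49.3 and 45.6 CPM, and with the combination 57.9, 53.3, 52.6 and 49.3 CPM. DMSO was again the widest group, with replicate 1 below every other library. The 95% interval of the log2 fold change was 0.06 to 0.54 with EZH2i, −0.16 to 0.32 with PRMT5i and −0.02 to 0.46 with the combination. The values were 0.30, 0.08 and 0.22 in the same order. Without DMSO replicate 1 they were 0.20 (adjusted p = 0.218), −0.04 (adjusted p = 0.747) and 0.10 (adjusted p = 0.432), and without DMSO replicate 2 the first and the last passed, at 0.41 and 0.33. The log2 ratio of TET1 to TET3 in CPM was −2.87 ± 0.33 (SD, n = 4) in DMSO, −2.68 ± 0.24 with EZH2i, −2.22 ± 0.16 with PRMT5i and −2.09 ± 0.13 with the combination. All 8 libraries with PRMT5i present lay between −2.37 and −1.99, and the 8 without it between −3.24 and −2.42.

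In EZH2i against DMSO the count of calls changed with the libraries that were fitted together. When only the 8 libraries of these groups were fitted, 0 of the 8 genes passed in edgeR and 135 of all genes did, with an adjusted p of 0.097 for DNMT3B, 0.108 for TET1, 0.206 for DNMT3A and 0.219 for TET2. The fit over all groups had 6 of the 8 genes at an unadjusted p under 0.05, and 4466 of all 16555 tested genes. DESeq2 called 4 of the 8 and limma-voom with library quality weights called 6. Their numbers over all genes are given in the section on processing. The log2 fold changes of the 4 genes were nearly the same in the fit of these groups alone, at 0.41, 0.53, 0.63 and 0.29.

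TDG (chr12:103965804-103988874, plus strand), the glycosylase that removes oxidised cytosines, had fold changes below 0 against DMSO in all 3 treatments and passed in none of them. It measured 78.6, 51.9, 68.3 and 76.6 CPM in DMSO and 44.3, 61.5, 52.3 and 60.4 CPM with EZH2i. The PRMT5i values were 64.7, 64.6, 53.9 and 57.8 CPM, and with the combination 62.4, 56.4, 48.1 and 56.7 CPM. Here DMSO replicate 1 was the highest library and DMSO replicate 2 the lowest of its group, the reverse of UHRF1, DNMT1, DNMT3A and TET3. The 95% interval of the log2 fold change was −0.62 to −0.05 with EZH2i (adjusted p = 0.126, edgeR), −0.47 to 0.09 with PRMT5i (adjusted p = 0.282) and −0.58 to −0.02 with the combination (adjusted p = 0.0878). These values were −0.33, −0.19 and −0.30 with all libraries. They were −0.26, −0.14 and −0.25 without DMSO replicate 1 (adjusted p = 0.342, 0.506 and 0.196), while without DMSO replicate 2 all 3 passed, at −0.45, −0.31 and −0.42. TDG has near copies elsewhere in the genome and its RSEM value was not whole in 12 of 16 libraries, so its level is uncertain.

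Of the 15 genes for repair after oxidation or deamination of cytosine, 14 could be tested. None passed the edgeR test with EZH2i, where 7.6% of all tested genes passed. An unadjusted p under 0.05 was found for 4 of the 14, and for 4466 of all 16555 tested genes. DESeq2 called 0 and limma-voom called 3. With PRMT5i 1 rose and 4 fell, and with the combination 0 rose and 5 fell. These 5 of 14 genes in each comparison lie at the background, since 35.3% and 36.2% of all genes were called. UNG, the uracil glycosylase, fell from 54.0 CPM in DMSO to 33.2 CPM with PRMT5i (log2 fold change −0.70 ± 0.10, adjusted p = 3.6e-05, edgeR). NEIL3, a glycosylase of proliferating cells, fell from 40.7 to 20.6 CPM (−0.98 ± 0.13, adjusted p = 1.84e-05). GADD45B, a stress-induced factor linked to demethylation, fell from 18.0 CPM in DMSO to 10.2 CPM with the combination (−0.81 ± 0.13, adjusted p = 9.8e-05).

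Of the 10 TET partners and enzymes of 2-oxoglutarate, the co-substrate of the TET enzymes, 9 could be tested. With EZH2i 2 rose and 2 fell, with PRMT5i 3 fell and none rose, and with the combination 1 rose and 1 fell. Of all tested genes, 7.6%, 35.3% and 36.2% were called in the same order. The counts with PRMT5i and with the combination therefore do not exceed the background. OGT, the glycosyltransferase that binds TET proteins, fell from 214 CPM in DMSO to 171 CPM with EZH2i (log2 fold change −0.33 ± 0.09, adjusted p = 0.0447, edgeR) and to 168 CPM with PRMT5i (−0.35 ± 0.09, adjusted p = 0.00801). IDH2, which makes 2-oxoglutarate in mitochondria, moved in opposite directions, by 0.34 ± 0.10 with EZH2i (adjusted p = 0.0428) and by −0.43 ± 0.10 with PRMT5i (adjusted p = 0.00222). WT1, which recruits TET2 to DNA, fell by 0.51 on the log2 scale with PRMT5i (−0.51 ± 0.12, adjusted p = 0.00303), and 2.75% of its exon bases are shared with its antisense RNA, so it is uncertain to that extent.

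None of the 9 genes listed as methyl-CpG readers fell in any of the 3 comparisons with DMSO. The list includes members of the methyl-CpG binding domain family, such as MBD5. Their binding to methylated CpG was not examined here, so not every one need be a reader. With PRMT5i 4 rose and with the combination 4 rose, while with EZH2i 1 rose. Of all tested genes, 17.1%, 17.6% and 4.11% were called higher and 18.3%, 18.5% and 3.49% lower, in the same order. ZBTB4, a zinc finger reader, rose from 10.4 CPM in DMSO to 17.9 CPM with PRMT5i (log2 fold change 0.78 ± 0.11, adjusted p = 4.02e-05, edgeR). ZBTB38, a related reader, rose from 0.837 to 1.90 CPM (1.17 ± 0.20, adjusted p = 0.000224). ZBTB33, known as Kaiso, had 152 CPM with EZH2i and 325 CPM with the combination (1.10 ± 0.17, adjusted p = 0.000125). MBD5, of the methyl-CpG binding domain family, rose by 0.62 ± 0.09 with EZH2i (adjusted p = 0.000773), by 0.54 ± 0.09 with PRMT5i (adjusted p = 0.000118) and by 0.93 ± 0.09 with the combination (adjusted p = 6.38e-07). MBD5 shares 0.647% of its exon bases with a neighbour and is uncertain to that extent.

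**Figure D3:**
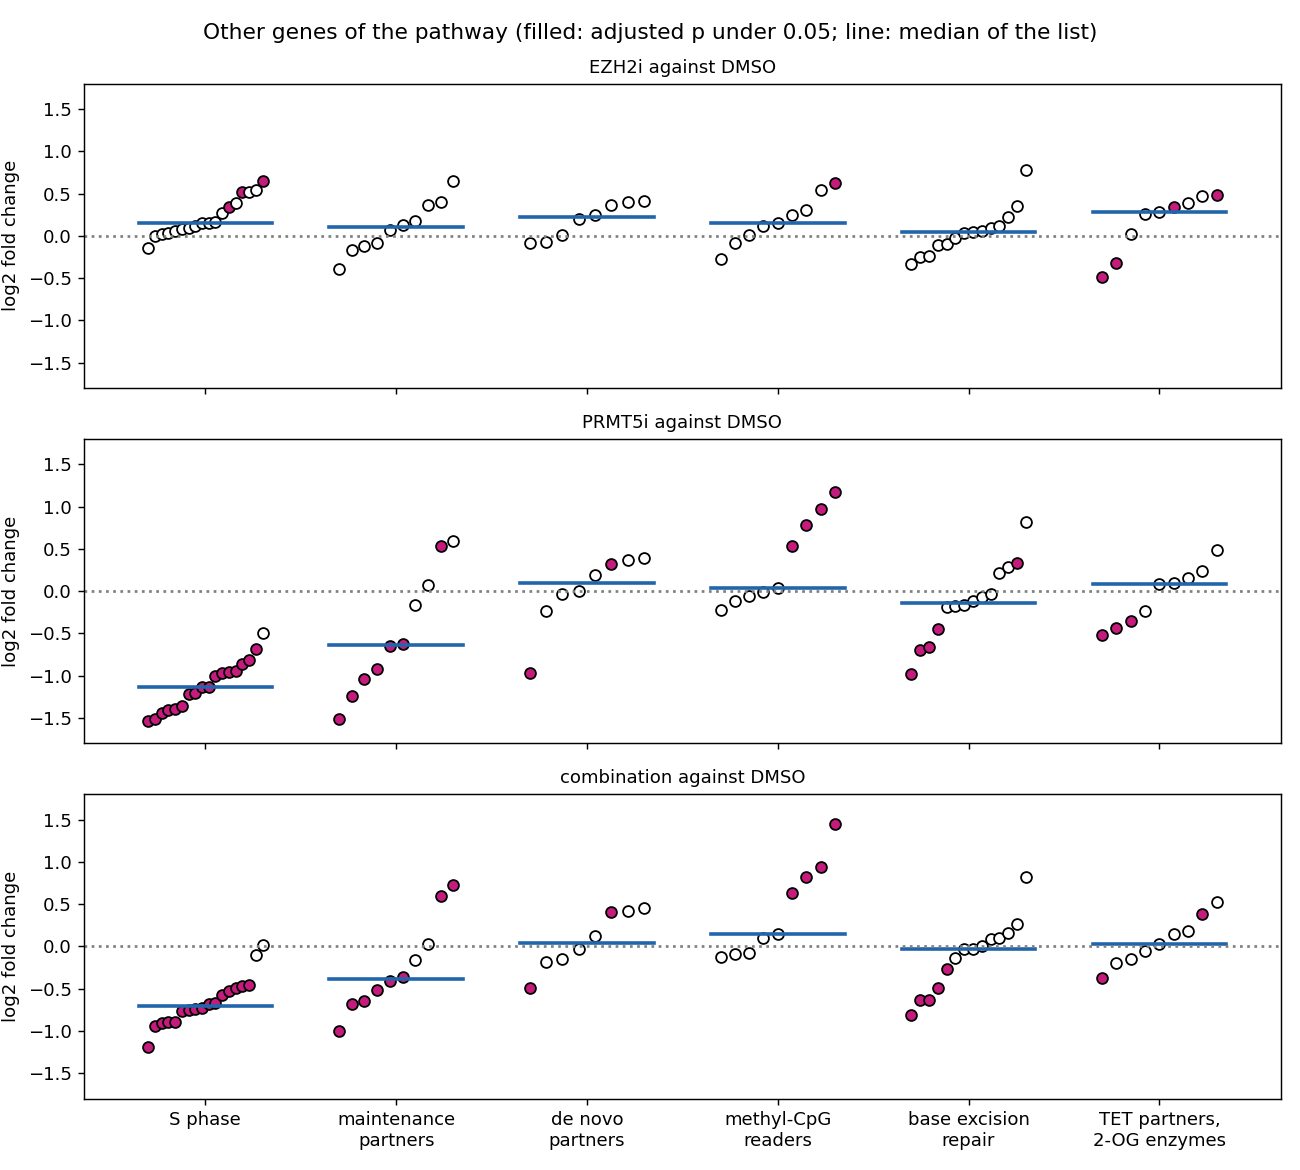
Log2 fold change (vertical axis) of every tested gene of 6 lists from the methylation pathway and S phase, in the 3 comparisons with DMSO, with filled points where the adjusted p was under 0.05 and a line at the median of each list. With PRMT5i, 17 of the 18 S phase genes and 6 of the 10 maintenance partners are filled below 0, while the 4 filled genes of the methyl-CpG reader list lie above 0.

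The S phase genes, a list of 18 genes for replication licensing, replication and nucleotide synthesis, gave a scale for the writers. With PRMT5i 17 of the 18 fell (median log2 fold change −1.14), with the combination 16 fell (−0.70), and with EZH2i 3 rose (0.15). Adding EZH2i to PRMT5i raised 12 and lowered none (0.41). Of all tested genes, 18.3% fell with PRMT5i and 18.5% with the combination, 4.11% rose with EZH2i, and 2.91% rose on adding EZH2i to PRMT5i. CDC6, a licensing factor, fell from 62.8 to 24.5 CPM with PRMT5i and POLA1, the primase-bound polymerase subunit, from 80.1 to 27.6 CPM. Several of the 18 are uncertain because of shared exon bases, the largest shares being 39.1% for TYMS, 22.7% for MCM2 and 20.2% for RRM2. DNMT3B stayed within the range of this list in all 5 comparisons. With PRMT5i 11 of the 18 genes had a lower fold change than DNMT3B and 7 a higher one. These numbers were 14 and 4 both with EZH2i and with the combination against DMSO, 12 and 6 for the combination against PRMT5i, and 8 and 10 for the combination against EZH2i. Its log2 level minus the mean log2 CPM of the S phase genes was −2.39 ± 0.07 (SD, n = 4) in DMSO, −2.22 ± 0.13 with EZH2i, −2.26 ± 0.11 with PRMT5i and −2.24 ± 0.12 with the combination. The S phase mean itself ranged from 5.70 ± 0.08 with PRMT5i to 7.03 ± 0.06 with EZH2i.

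With all libraries, DNMT1 fell by less than most of the list. For PRMT5i 16 of 18 S phase genes lay below it, and for the combination against DMSO 11 of 18. The log2 level of DNMT1 minus the S phase mean was 0.90 ± 0.28 (SD, n = 4) in DMSO and 0.92 ± 0.06 with EZH2i. It was 1.29 ± 0.07 with PRMT5i and 0.97 ± 0.09 with the combination. Without DMSO replicate 1 the DMSO mean was 1.03 ± 0.08. That lies above the combination's mean, so for the combination the smaller fall was not kept without this library. For UHRF1 the same difference was 0.18 ± 0.64 in DMSO, 0.48 ± 0.03 with EZH2i, 0.95 ± 0.10 with PRMT5i and 0.73 ± 0.10 with the combination. In DMSO the UHRF1 values were −0.75, 0.60, 0.63 and 0.22 in the order of replicates, with a mean of 0.48 ± 0.23 without replicate 1. The UHRF1 values were 0.63 to 1.05 in the libraries with PRMT5i present and 0.44 to 0.50 with EZH2i, so the highest DMSO library lies level with the lowest combination library. UHRF1, DNMT3A, TET1, TET2, TET3 and TDG had a higher fold change with PRMT5i than any of the 18 S phase genes. For UHRF1 the margin was narrow, at −0.43 against a highest S phase value of −0.49. Without DMSO replicate 1 UHRF1 stood at −0.67, and in that fit it was not compared with the list. The TET1 difference from the S phase mean went from −4.16 ± 0.12 in DMSO to −2.32 ± 0.06 with PRMT5i and −2.52 ± 0.13 with the combination. These differences describe the libraries and were not tested. The share of cells in S phase was not analysed here, and its part in the changes of DNMT1 and DNMT3B was not tested.

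**Figure D4:**
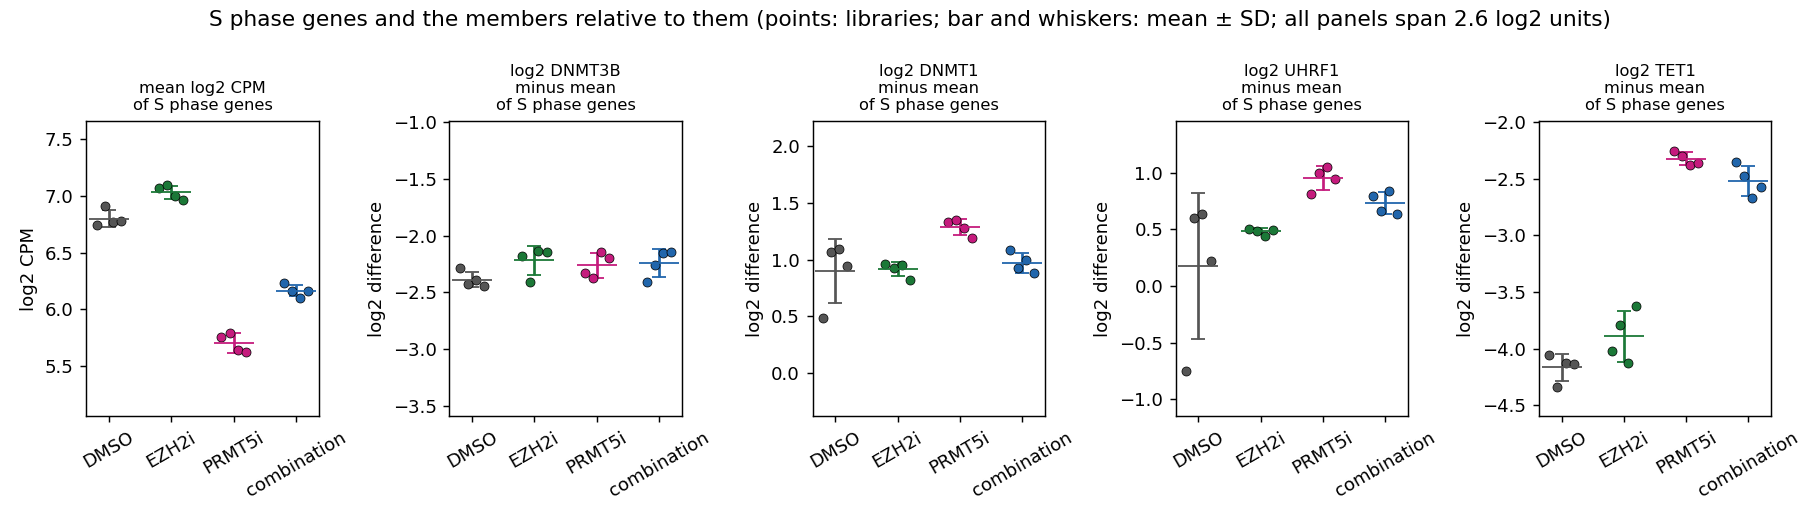
Mean log2 CPM of the 18 S phase genes by treatment (first panel), and log2 CPM of DNMT3B, DNMT1, UHRF1 and TET1 minus that mean (other panels), with 1 point per library, mean ± SD, and vertical axes that differ in position and all span the same range. The mean of the S phase genes moves by more than 1 log2 unit between PRMT5i and EZH2i, while the DNMT3B difference stays between −2.44 and −2.14 in all 16 libraries.

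For none of the 8 genes was the effect of an inhibitor found to depend on the other. For the interaction, the effect of EZH2i with PRMT5i present minus its effect without it, 0 of the 8 genes passed in edgeR, where 0.29% of all tested genes did (0.254% higher and 0.0362% lower). None had an unadjusted p under 0.05, DESeq2 called 0 and limma-voom called 1, DNMT3A (−0.54, adjusted p = 0.0447). In edgeR the DNMT3A interaction was −0.46 (95% interval −0.97 to 0.05) and that of TET1 was −0.25 (95% interval −0.60 to 0.10). For DNMT3B, which EZH2i raised by 0.48 with PRMT5i present and by 0.40 without it, the interaction was 0.08 (95% interval −0.14 to 0.30), the narrowest of the 8 intervals. For TET2 the interaction was −0.02 (95% interval −0.25 to 0.21). For UHRF1, with its wide DMSO values, the interval of −0.81 to 0.44 leaves large differences possible.

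Within treatments the 8 genes fell into those that varied together and those that did not. Over the 16 libraries, as deviations from the group means, the Pearson correlation was 0.92 for TET3 with UHRF1, 0.89 for UHRF1 with DNMT1, 0.89 for TET3 with DNMT1 and 0.83 for TET3 with DNMT3A. TDG went against DNMT3A, at −0.80. TET1 and TDG varied together, at 0.69, and TET2 had values of −0.18 to 0.14 with the other 7 genes. These values are descriptions over 16 libraries that share the GC slopes given above. The longest transcripts of UHRF1, DNMT1, DNMT3A and TET3 have 54.6%, 55.4%, 53.7% and 52.3% GC, and that of TDG has 39.5%. DNMT3B, with 53.9% GC, correlated at −0.13 with UHRF1, −0.24 with DNMT1, 0.25 with DNMT3A, −0.10 with TET3, −0.62 with TET1 and −0.64 with TDG. The part of GC content in these values was not tested. In DMSO the coefficient of variation was 39.4% for UHRF1, 32.7% for DNMT3A, 21.1% for DNMT1, 19.5% for TET3 and 17.6% for TDG, against 4.76% for DNMT3B, 3.48% for TET2 and 3.05% for TET1. With library-wise GC correction, added after the data were seen, the EZH2i fold change of DNMT3A was 0.59 (adjusted p = 0.00565) and its PRMT5i fold change was 0.34 (adjusted p = 0.038). The PRMT5i fold change of UHRF1 was −0.41 (adjusted p = 0.0804), nearly as before.

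Over the 16 libraries, the genes whose log2 CPM followed each writer or eraser most closely were sought among the 10122 whose mean reached 5 CPM. UHRF1 was most like MYBL2 (Pearson r = 0.990), SMC1A and INSR. DNMT1 was most like TK1 (0.986), ACAD9 and PKMYT1. DNMT3B was most like ORC1 (0.985), MTL5 and ASF1B. DNMT3A was most like WDTC1 (0.972), SRRM2 and TACC3, and TET3 was most like MDC1 (0.973), ARID1A and DLGAP4. TET1 was most like SECISBP2L (0.965), FAM46A and DSTN, TET2 was most like KCTD3 (0.969), ROCK2 and RASAL2, and TDG was most like EIF4E (0.954), NIP7 and UNC50. All are protein-coding genes. The values of SMC1A, ACAD9, PKMYT1, ASF1B, SRRM2, MDC1, ARID1A, DLGAP4, RASAL2, EIF4E and NIP7 are uncertain because they share exon bases with another gene, at most 24.5% for PKMYT1. The libraries of a treatment share that treatment, so these values describe common patterns and carry no test.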

How the data were processed

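Total RNA of 16 MOLM-13 samples was sequenced, 4 for each treatment. The authors deposited 1 table of expected counts per gene with no scaling to depth, and the submitters' processing notes name STAR 2.5.3, RSEM and the build GRCh38.p7. The annotation, the strand setting and the RSEM version are not given in the sources used here. Of the values, 12.0% were not whole, since RSEM divides reads that match several genes, which bears on UHRF1 and TDG.

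Expected counts were rounded to whole numbers, filtered with filterByExpr given the 4 groups (16555 genes left, 16437 of them in GENCODE release 29) and scaled by TMM. In edgeR 4.0.16 (R 4.3.3), 1 quasi-likelihood fit took the means of the 4 groups over all 16 libraries, without a replicate term. It tested the 5 comparisons and the interaction, with p adjusted by Benjamini-Hochberg over all genes tested and a threshold of 0.05. Every adjusted p is from this fit unless another is named. Counts of 16230 genes were also simulated for all 16 libraries, with 200 genes changed by a log2 fold of 1 wherever PRMT5i was present. For PRMT5i against DMSO the fit recovered 71% of these and called 7 unchanged genes. Far fewer genes were changed there than were called in the data. The GC slopes and the scaling of DMSO replicate 1 were not simulated, so these rates need not hold for the data. CPM uses TMM-scaled sizes, log2 CPM a prior count of 2, and CPM per kb the union of exons in GENCODE release 29. Depth of 31.1 to 52.9 M counts per library, with at least 190 counts for each of the 8 genes, sets the precision, and variation between libraries enters through the fit.

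The 8 genes and the lists (maintenance partners, de novo partners, readers, repair genes, TET partners, S phase genes, germline genes and cell type markers) were chosen with earlier results of these data known. Named genes are the 8, up to 3 genes with the smallest p per list and comparison among those past the threshold, not all of which are named, and the 3 genes most like each of the 8. Alternatives were scaling to total counts, DESeq2 1.42.0, no filter, limma 3.58.1 voom with quality weights, a replicate block, a term for replicates 3 and 4 against 1 and 2, fits of only the groups compared and leaving out each library. Correction for GC content, with and without DMSO replicate 1, and DMSO means of log2 ratios without that library were added after the data were seen. Python 3.11.15, numpy 2.4.6, pandas 2.3.3 and matplotlib 3.10.9 were used. Some genes of the lists are counted but not reported by name here.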

Additional observations from a re-analysis of the deposited data

Results flagged for a closer look

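Of the values by library, 3 lay far from the other 3 of their group, by a gap whose share of the group's whole range passed Dixon's 95% critical value, among 68 groups of 4 libraries examined. Chance alone flags about 1 in 20 such groups. DNMT3A had 25.1 CPM in PRMT5i replicate 1, below 29.9 to 30.3 CPM in the other PRMT5i libraries (gap 0.931 of the range). DNMT3B had 11.2 CPM in PRMT5i replicate 3, above the other PRMT5i libraries (gap 0.954), although the whole group spans only 10.7 to 11.2 CPM. DNMT3B minus the S phase mean was −2.41 on the log2 scale in EZH2i replicate 2, below −2.18 to −2.14 in the other EZH2i libraries (gap 0.842).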

How the results depend on the processing

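Over all 48 fold changes of the 8 genes, 712 of 768 values from fits that left out 1 library and 387 of 424 from the other alternatives kept their direction and their side of the threshold. Replicate numbers gave no clear pairing of the libraries. Same-numbered deviations correlated by −0.272 to 0.236, and at most 5 of 8 libraries of a pair of groups were closest to their own number. That number, 5 of 8, was reached by EZH2i with PRMT5i and by PRMT5i with the combination. Same-numbered correlations were 0.026 to 0.236 for PRMT5i with the combination. Whether these groups were partly paired is not known. With the replicate block the numbers of genes past the threshold were 1430, 5939, 6130, 4740, 857 and 50 in the order of the comparisons as given above with the interaction last, against 1259, 5847, 5990, 4633, 688 and 48 without it, and the counts among the 8 genes were the same (4, 4, 5, 5, 1 and 0). The number of genes for EZH2i against DMSO was 2149 in DESeq2, 4474 in limma-voom, 135 in the fit of these groups alone, 3042 with GC correction and 2278 with GC correction without DMSO replicate 1, with 4, 6, 0, 6 and 4 of the 8 genes among them. For the combination against PRMT5i these were 1064, 2617, 2099, 1311 and 2117 genes, with 2, 2, 3, 2 and 3 of the 8, and 2 of the 8 under total counts. For the interaction they were 121 (DESeq2), 463 (limma-voom), 119 (GC correction) and 149 (without DMSO replicate 1 as well), with 1 of the 8 in limma-voom. Leaving out 1 library gave 499 (without DMSO replicate 4) to 4591 genes (without DMSO replicate 2) and 1 to 7 of the 8 for EZH2i against DMSO, 263 to 1011 genes and 1 to 2 of the 8 for the combination against PRMT5i, and 28 to 124 genes for the interaction. Some small differences changed sign. TDG for the combination against EZH2i was −0.085 with GC correction, −0.11 with it and without DMSO replicate 1, and −0.056 (without EZH2i replicate 1) to 0.098 on leaving out 1 library, with −0.024 without combination replicate 1, against 0.033. TET3 with PRMT5i was −0.019 with GC correction without DMSO replicate 1, and −0.044 (without DMSO replicate 1) to 0.19 on leaving out 1 library, against 0.077. For the interaction, TET2 was 0.019 in limma-voom and −0.067 to 0.030 on leaving out 1 library, with 0.030, 0.00042 and 0.011 without EZH2i replicate 4, PRMT5i replicate 4 and combination replicate 1. DNMT1 was 0.0044 with GC correction, 0.090 with it and without DMSO replicate 1, and −0.18 to 0.041 on leaving out 1 library (0.041 without DMSO replicate 1). UHRF1 was 0.073 with GC correction without DMSO replicate 1, and −0.36 to 0.036 on leaving out 1 library (0.036 without DMSO replicate 1). The cause was not tested. Scaling to total counts moved the median of all genes by 0.0957 with EZH2i and 0.126 with the combination against DMSO, and split their calls into 855 higher and 289 lower (681 and 578 under TMM) and 3892 and 2022 (2920 and 3070). Called directions among the 8 genes were the same under both scalings.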

Other observations

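Of 17 germline and cancer-testis genes that are often silenced by promoter methylation, 4 had enough counts to be tested. MAEL, a piRNA pathway gene of germ cells, rose from 0.105 ± 0.0597 CPM (SD, n = 4) in DMSO to 0.568 ± 0.178 CPM with PRMT5i (log2 fold change 2.46 ± 0.48, SE, adjusted p = 0.000683, edgeR) and 0.476 ± 0.212 CPM with the combination (2.21 ± 0.49, adjusted p = 0.00207). It was at 0.113 ± 0.0641 CPM with EZH2i. The highest MAEL level was 0.156 CPM in DMSO and 0.201 CPM with EZH2i. The lowest was 0.369 CPM with PRMT5i and 0.302 CPM with the combination. MAEL passed the filter on low counts only through the libraries with PRMT5i present, where it was high. Its being tested thus depended on this rise, which gives no support for a change of the list. SMC1B, the meiotic cohesin subunit, fell from 1.52 CPM in DMSO to 0.551 CPM with PRMT5i (−1.48 ± 0.37, adjusted p = 0.00484). The list as a whole had a median log2 fold change of 0.12 over the 4 tested genes with PRMT5i. No member was called with EZH2i in edgeR, DESeq2 or limma-voom. In edgeR 1 had an unadjusted p under 0.05 with EZH2i, as had 4466 of all 16555 tested genes.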
